A study of Mus musculus with 62 samples.

Results

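The chromatin around 8 genes of the transforming growth factor beta (TGF-beta) pathway was described in mouse haematopoietic stem and progenitor cells (HSPCs) that lacked Daxx. The genes were Tgfb1, Tgfbr1, Tgfbr2, Smad2, Smad3, Smad4, Smad6 and Smad7, 8 of the 21938 protein-coding genes annotated for mm10. They were chosen by measured values of these libraries, the regions listed as different between genotypes at Smad3 and its pathway, and a region counted for a gene if it overlapped the gene body or the 20 kb on either side. Over the 14 tables used, 919 of 1743368 listed regions did so, 86 at Tgfb1, 57 at Tgfbr1, 138 at Tgfbr2, 68 at Smad2, 215 at Smad3, 87 at Smad4, 163 at Smad6 and 105 at Smad7.

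Libraries were made by CUT&Tag, in which a transposase tethered to an antibody cuts DNA beside the bound protein, from Lin-negative c-Kit-positive bone marrow cells of C57BL/6 mice. WT mice were Daxx +/+ Cre +/-, Daxx-KO mice were Daxx F/F Cre +/- and double knockout (DKO) mice carried Daxx F/F together with Pu.1 F/F and Cre +/-, so that the control animals also carried Cre. Antibodies were against H3.3, Pu.1, H3K27ac and H3K9me3 at 3 weeks post induction (w.p.i.), H3K9me3 and H3K27me3 at 8 w.p.i., and H3.3, Pu.1, H3K27ac, H3K9me3 and H3K27me3 at 24 w.p.i. Groups held 2 libraries at 3 and 24 w.p.i. and 3 at 8 w.p.i., and 54 of 62 libraries entered the tables. By the mouse numbers in the labels each library of a group came from another mouse. WT replicate 1 of H3.3 and of Pu.1 at 3 w.p.i. was labelled Wildtype only, without a mouse number. At 3 w.p.i. the Daxx-KO mice of H3K27ac and H3K9me3 were not those of H3.3 and Pu.1. The labels gave no age and did not name the Cre line. The study used an interferon-inducible Mx1Cre, induced with pI:pC, and a Rosa26CreERT2, induced with tamoxifen, both active beyond the cells that were sorted. Per the paper DKO mice carried Mx1Cre, and the line of the other groups was not settled. The sort holds a mixture of stem cells and committed progenitors, so a lower signal per cell and fewer cells that carry it cannot be told apart.

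TGF-beta is a secreted ligand that brings a type II and a type I receptor together. The type I receptor phosphorylates the receptor-activated Smads, which join the common Smad and act on genes in the nucleus, while the inhibitory Smads dampen the signal and are themselves induced by it. The pathway is known for restraining the division of haematopoietic stem cells. Daxx is a chaperone of the histone variant H3.3, and Pu.1 is an ETS-family transcription factor of myeloid and lymphoid development. H3K27ac marks active promoters and enhancers, H3K27me3 marks genes held silent by Polycomb, and H3K9me3 marks heterochromatin.

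Each table listed merged windows of 600 bp that had passed the authors' comparison of the same libraries, and gave a normalized count for every library at every site. Here a site was called higher or lower when each library of one group lay above each library of the other and the group means differed at least 2-fold after 1 was added to both. Because the same libraries had selected the sites, no test was run, and counts and ratios are descriptions. With 2 libraries against 2 an exact two-sided permutation test could not go below p = 0.333, and with 3 against 3 not below 0.1. Log2 ratios are Daxx-KO over WT unless another pair is named, and all counts belong to a site as a whole, so that levels are compared between genes per kb only.

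The start regions of 3 genes show the letters over which the histone marks described below differed between genes. They are the 300 bases around the RefSeq start in GRCm38.p6, most of them upstream, read in the direction of transcription, and capitals mark GC boxes (GGGCGG, or CCGCCC for the other strand) at Tgfb1 and Smad3 and the Smad palindrome GTCTAGAC at Smad6:
Tgfb1 promoter, chr7:25686752-25687051, plus strand: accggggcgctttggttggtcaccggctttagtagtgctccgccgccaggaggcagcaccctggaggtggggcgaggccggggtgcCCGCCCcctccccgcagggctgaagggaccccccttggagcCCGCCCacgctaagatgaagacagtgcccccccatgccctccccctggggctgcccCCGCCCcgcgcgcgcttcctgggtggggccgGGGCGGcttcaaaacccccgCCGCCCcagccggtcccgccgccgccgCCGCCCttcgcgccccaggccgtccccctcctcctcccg
Smad3 promoter, chr9:63757945-63758244, minus strand: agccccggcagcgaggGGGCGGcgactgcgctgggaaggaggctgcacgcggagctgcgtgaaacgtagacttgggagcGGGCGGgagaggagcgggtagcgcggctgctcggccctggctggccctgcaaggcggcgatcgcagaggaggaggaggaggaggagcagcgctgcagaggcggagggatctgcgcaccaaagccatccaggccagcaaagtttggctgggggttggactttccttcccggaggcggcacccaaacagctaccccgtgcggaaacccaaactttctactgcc
Smad6 promoter, chr9:64022010-64022309, minus strand: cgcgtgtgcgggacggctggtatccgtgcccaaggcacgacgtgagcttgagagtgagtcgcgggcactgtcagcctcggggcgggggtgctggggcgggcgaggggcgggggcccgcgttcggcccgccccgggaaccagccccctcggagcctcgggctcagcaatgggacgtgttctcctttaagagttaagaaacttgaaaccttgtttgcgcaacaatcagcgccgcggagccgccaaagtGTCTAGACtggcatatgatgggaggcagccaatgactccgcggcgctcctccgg
The 300 bases were 77% G or C at Tgfb1, with 6 GC boxes, and 67.7% at Smad3, with 2. A GC box on either strand stood in 35.7% of 32851 such promoters. The palindrome, which reads alike on both strands and holds GTCT, the letters that Smad3 and Smad4 bind, stood in 0.213% of them and among the printed promoters at Smad6 alone, at chr9:64022056-64022063.

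Sites of Pu.1 at 24 w.p.i. whose central 600 bp held the ETS word GAGGAAGT on either strand were another set worth reading by letter. Among the 130 Pu.1 sites listed at the 8 genes 8 held the word, and all 8 were called lower in Daxx-KO. Several of the 8 lay at Smad6. Over the whole table the word stood in 4.16% of sites, in 4.08% of those called higher and in 4.25% of those called lower. It was thus nearly as frequent in both directions there, and 46.3% of all sites were called higher and 50.8% lower. Whether the word goes with the direction was not tested. Stretches of 60 bases from Tgfb1, Tgfbr1, Smad3 and Smad6 are given in mm10 coordinates, with the word in capitals:
Tgfb1, chr7:25711316-25711375, plus strand: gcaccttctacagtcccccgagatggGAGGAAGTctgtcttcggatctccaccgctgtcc
Tgfbr1, chr4:47351504-47351563, plus strand: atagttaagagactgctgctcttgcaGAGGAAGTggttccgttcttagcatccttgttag
Smad3, chr9:63671357-63671416, minus strand: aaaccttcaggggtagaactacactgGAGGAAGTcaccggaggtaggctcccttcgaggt
Smad6, chr9:63988886-63988945, minus strand: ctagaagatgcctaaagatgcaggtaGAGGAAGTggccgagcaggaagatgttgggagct
Smad6, chr9:63988983-63989042, minus strand: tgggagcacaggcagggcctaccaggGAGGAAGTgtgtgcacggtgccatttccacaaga
Smad6, chr9:63952706-63952765, minus strand: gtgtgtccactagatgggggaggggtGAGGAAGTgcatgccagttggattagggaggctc
Both Smad6 stretches that begin at 63988886 and 63988983 lie in 1 site, chr9:63987801-63989700, which overlaps an exon. Its normalized counts were 21.13 and 83.58 in Daxx-KO, against 213.01 and 248.39 in WT. At the Smad3 intron site chr9:63670301-63672200 the counts were 6.13 and 22.98 against 142.49 and 96.83. The stretch downstream of Smad6 at chr9:63952706-63952765 was the one with the word in a called site at both times, and it was lower at both, with 25.21 and 11.35 in Daxx-KO against 99.76 and 70.32 in WT at 3 w.p.i. At 3 w.p.i. the word stood in 4 of 108 Pu.1 sites, 2 called higher and 2 lower, beside 4.21% of all sites.

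H3.3 at 3 w.p.i. was mostly higher around the 8 genes at the 2-fold minimum. Of 98 listed sites 74 were called higher in Daxx-KO and 15 lower, beside 54% and 37.5% of all 145427 sites. The share of called sites that were higher was thus 83.1% at the 8 genes and 59% in the whole table. With a 4-fold minimum 10 sites were higher and 9 lower, 52.6% beside 44.2% overall. Smad3 had 20 higher and 0 lower and Smad6 had 18 and 0, whereas Smad2 had 1 higher and 5 lower. All 8 sites within 1 kb of a transcript start, at 6 genes, were higher, beside 69.9% of all such promoter sites.

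Pu.1 at 3 w.p.i. leaned the same way. There 63 of 108 sites were called higher and 21 lower, beside 47.4% and 38.2% of 161128 sites, and with a 4-fold minimum 7 were higher and 5 lower, 58.3% beside 44.7% overall. Smad3 contributed 22 higher and 3 lower, Smad6 12 and 5, and Tgfb1 10 and 0. Of 11 promoter sites 8 were higher and 2 lower, beside 65.3% and 18.2% of all promoter sites. Sequencing depth was uneven in both tables. WT replicate 2 averaged 3.06 and 2.75 reads per window for H3.3 and Pu.1 against 22.88 and 33.78 in WT replicate 1, and 1 of its reads stood for 2.63 and 3.23 normalized counts. Scaling every library to its mean reads per window, a choice made after the data had been seen, gave 80 higher and 12 lower for H3.3 and 74 and 11 for Pu.1, and moved the share higher among all called sites from 59% to 69.6% and from 55.3% to 69.1%. Without WT replicate 2, 51 H3.3 sites and 39 Pu.1 sites were called higher and 14 and 18 lower, and at Smad3 15 and 10 were higher. The shares of all sites without that library were not computed, and its part in the direction was not tested.

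H3K27ac at 3 w.p.i. was lower at 50 of 89 sites and higher at 32, close to the 57.4% and 37.7% of all 103914 sites. The genes differed from each other. Smad3 had 19 lower and 1 higher, and leaving out each library in turn left 18 or 19 lower. Smad7 had 6 higher and 2 lower and Tgfbr2 12 and 8. Of 9 promoter sites 7 were lower and 1 higher, beside 67.4% and 23.6% of all promoter sites in that table.

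At 24 w.p.i. H3.3 and Pu.1 no longer leaned one way. For H3.3, 71 of 127 sites were higher and 52 lower, beside 50.8% and 46.8% of 255404 sites, and Smad3 had 17 and 13. Pu.1 had 65 of 130 higher and 62 lower, beside 46.3% and 50.8% of 253825 sites, and Smad3 had 13 and 14. Tgfbr1 stood out for opposite leanings of both antibodies, with 6 higher and 1 lower for H3.3 and 2 higher and 6 lower for Pu.1. Promoter sites were few, 2 higher and 3 lower of 5 for H3.3 (51.1% and 46% of all promoter sites) and 2 and 5 of 8 for Pu.1 (42.6% and 53.8%).

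H3K27ac at 24 w.p.i. had the most sites, 205 at the 8 genes, of which 65 were higher and 77 lower, beside 31.5% and 49.3% of 193657 sites. This direction depended on the scaling of the libraries. The Daxx-KO libraries averaged 5.39 and 5.84 normalized counts per window against 8.38 and 8.17 in WT, and when every library was instead scaled to its mean reads per window, 102 sites were higher and 27 lower. The share of called sites that were higher then moved from 45.8% to 79.1% at the 8 genes and from 39% to 57.6% in the whole table, and the median log2 ratio of all sites from -1.01 to -0.46. Smad3 moved from 15 higher and 19 lower to 33 and 5, Tgfbr2 from 11 and 15 to 16 and 2, and Smad7 from 12 and 7 to 16 and 2.

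H3K9me3 at 24 w.p.i. was called higher at 40 of 58 sites and lower at 15, beside 40.8% and 42.3% of 150482 sites, and had the same counts after rescaling. Smad3 had 14 higher and 3 lower and Smad6 12 and 4, and Tgfbr1 had no listed site. The member sites were 18.2% repeat-masked at the median and all sites 25.2%. At 3 w.p.i. 4 H3K9me3 sites were listed at the 8 genes, 3 higher and 1 lower, beside 77.6% and 20% of 62029 sites.

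H3K27me3 at 24 w.p.i. was lower at 50 of 72 sites and higher at 5, beside 42.5% and 24.3% of 134001 sites. All 8 sites at Smad3 and all 11 at Smad7 were lower, as were 12 of 19 at Smad6, 7 of 9 at Tgfb1, 4 of 5 at Tgfbr1 and 4 of 4 at Tgfbr2. Smad2 and Smad4 had few calls, 2 higher and 3 lower at Smad2 and 2 and 1 at Smad4. Rescaled libraries gave 40 lower and 9 higher. The share higher among called sites moved from 9.09% to 18.4% at the 8 genes and from 36.4% to 56.4% over all sites. The median log2 ratio of all sites stayed negative, at -0.81 as deposited and -0.48 after rescaling.

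**Figure D1:**
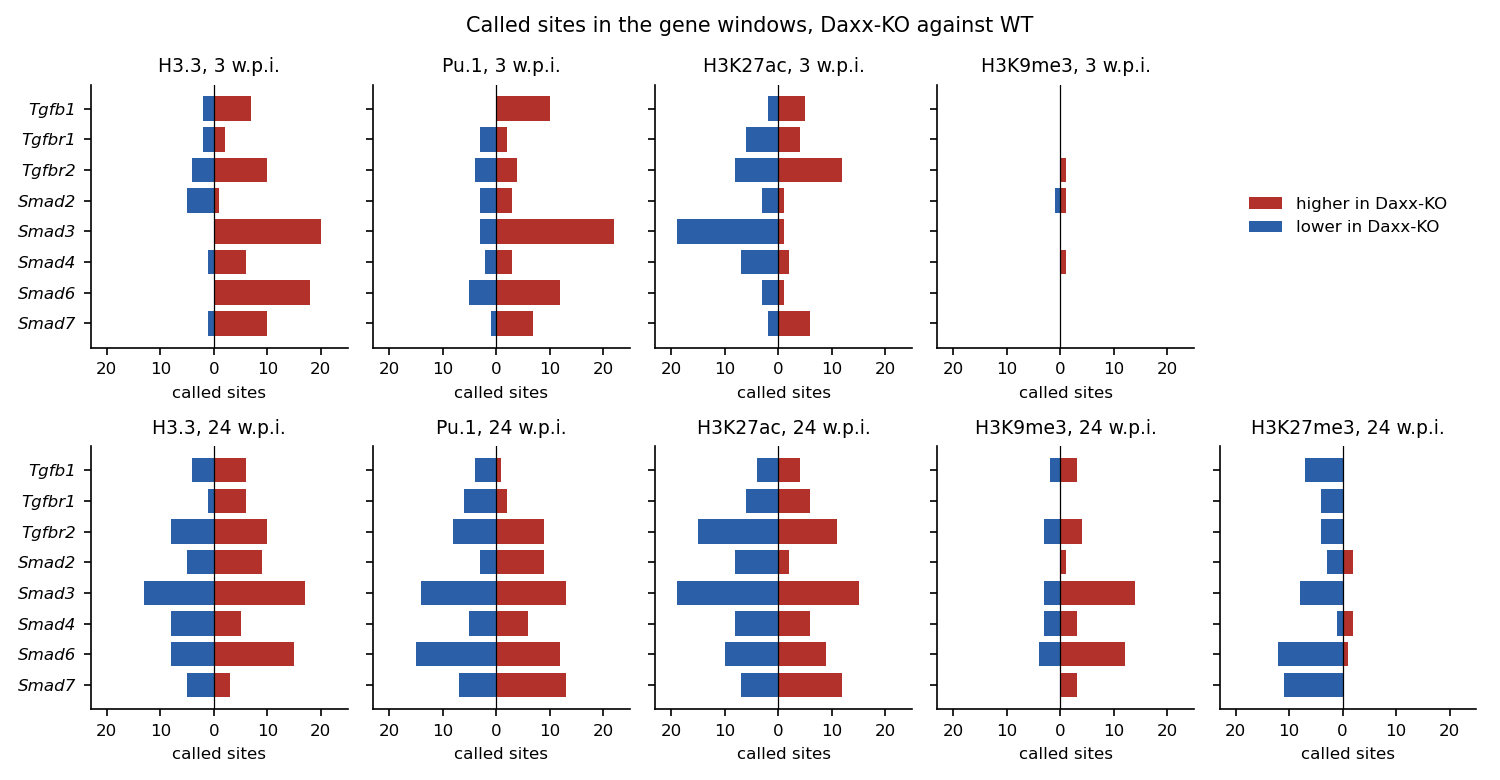
Number of called sites in each gene window (gene body and 20 kb on either side) for Daxx-KO against WT at 3 and 24 w.p.i., with sites higher in Daxx-KO to the right and lower to the left of 0. Smad3 had 20 higher and 0 lower H3.3 sites and 1 higher and 19 lower H3K27ac sites at 3 w.p.i., and 0 higher and 8 lower H3K27me3 sites at 24 w.p.i. Counts are on the deposited scale, and rescaling turned H3K27ac at Smad3 at 24 w.p.i. from 15 higher and 19 lower to 33 and 5.

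**Figure D2:**
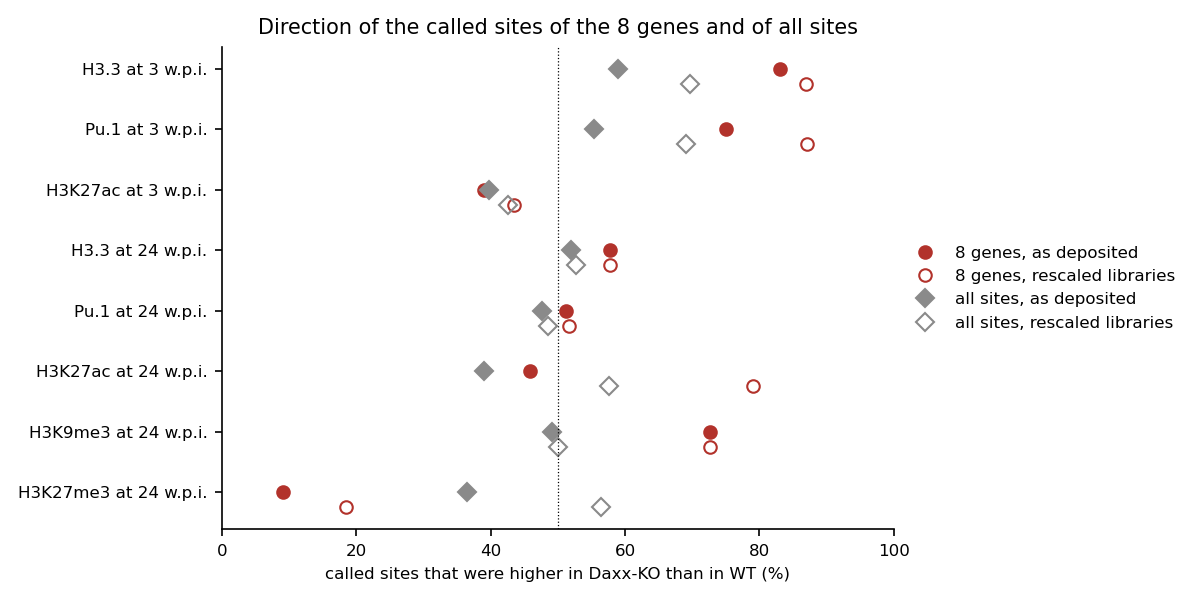
Percentage of called sites that were higher in Daxx-KO, for the 8 genes (circles) and all sites of the table (diamonds), as deposited (filled) and after rescaling each library to its mean reads per window (open). The 8 genes lay above all sites for H3.3 at 3 w.p.i. (83.1% and 59% at the 2-fold minimum, 52.6% and 44.2% at 4-fold) and below them for H3K27me3 at 24 w.p.i. (9.09% and 36.4%), and H3K27ac at 24 w.p.i. moved from 45.8% to 79.1% on rescaling.

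Tgfb1, which encodes the ligand, spans chr7:25687002-25705077 on the plus strand (ENSMUSG00000002603.15), and its window holds 5 other coding genes (B9d2, Ccdc97, Exosc5, Hnrnpul1 and Tmem91). At its start H3.3 at 3 w.p.i. was higher in Daxx-KO over chr7:25686551-25687950, with normalized counts of 150.03 and 138.54 in Daxx-KO against 35.06 and 52.39 in WT, a log2 ratio of 1.70. Pu.1 over chr7:25686851-25687550 at the same time had 64.59 and 67.28 against 27.68 and 28.77. Both antibodies thus separated the genotypes over the start printed above. A stronger Pu.1 site within 1 kb of an inner transcript start, chr7:25693401-25694950, had 133.9 and 128.08 against 53.8 and 9.59, where the lowest value is the shallow WT library.

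H3K27me3 over the same Tgfb1 start, chr7:25686301-25687700, was lower in Daxx-KO at 24 w.p.i., with 39.88 and 58.88 against 236.2 and 182.76, a log2 ratio of -2.06 and of -1.73 after rescaling. Both Daxx-KO values lay far under both WT values. The neighbouring site chr7:25689201-25689950 had 27.12 and 38.64 against 90.56 and 62.82, and this call was lost on rescaling. H3K27ac over chr7:25685351-25687350 had 912 and 826 normalized counts per kb in Daxx-KO against 717 and 664 in WT, apart but under the 2-fold limit. At 3 w.p.i. an inner Tgfb1 promoter site of H3K27ac, chr7:25690801-25691700, was lower, with 0 and 1.7 against 15.04 and 8.83.

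Tgfbr1 (ENSMUSG00000007613.15, chr4:47353222-47414931, plus strand) encodes the type I receptor kinase. H3.3 at its start, chr4:47353051-47353850, had 48.96 and 58.95 normalized counts in Daxx-KO against 12.62 and 0 in WT at 3 w.p.i. By 24 w.p.i. H3K27ac over chr4:47353201-47354250 was higher in Daxx-KO, with 341.69 and 291.27 against 154.15 and 105.21, a log2 ratio of 1.28. The groups overlapped in neither table.

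About 1 kb upstream of Tgfbr1, called sites of 5 tables overlapped at chr4:47351301-47352200. H3.3 there had 3.16 and 14.74 in Daxx-KO against 52.59 and 81.2 in WT at 3 w.p.i. Pu.1 at 24 w.p.i., in a site with the word GAGGAAGT, had 0 and 11.49 against 34.54 and 79.99. H3K27ac was lower at 3 w.p.i. (0 and 0 against 21.49 and 13.24) and higher at 24 w.p.i. (86.17 and 121.49 against 58.09 and 44.3). A further upstream H3.3 site at 3 w.p.i., chr4:47347801-47348400, was higher (34.74 and 30.95 against 14.72 and 5.24), so both directions occurred upstream of the gene. The most extreme ratio at the gene lay near the window's edge, at chr4:47333601-47334400, where H3.3 at 24 w.p.i. had 112.61 and 93.94 in Daxx-KO against 0 and 0 in WT.

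Tgfbr2 (ENSMUSG00000032440.13, chr9:116084293-116175360, minus strand), the type II receptor that binds the ligand first, had called sites of 5 tables over chr9:116172151-116173000 in an intron near its 5′ end, all higher in Daxx-KO. Counts were 50.54 and 33.9 against 15.43 and 13.1 for H3.3 and 69.32 and 62.42 against 32.91 and 19.18 for Pu.1 at 3 w.p.i. At 24 w.p.i. they were 70.66 and 40.75 against 0 and 11.28 for H3.3 and 77.7 and 43.88 against 0 and 10.53 for Pu.1. H3K9me3 at 24 w.p.i. was also higher there, with 65.03 and 52.11 against 24.87 and 0. H3.3 and Pu.1 thus had the same direction there at both times, in different mice.

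Just before the 5′ end of Tgfbr2, Pu.1 at chr9:116175851-116177000 had 174.49 and 62.69 in Daxx-KO against 0 and 4.21 in WT at 24 w.p.i., a log2 ratio of 5.27. Inside the gene and within 1 kb of a start, at chr9:116174001-116174700, H3K27me3 had 15.16 and 21.16 against 73.75 and 64.25. H3K9me3 over chr9:116174151-116174800 went the other way, with 29.33 and 45.86 against 0 and 5.62. The 2 repressive marks therefore differed in opposite directions over shared bases. At 3 w.p.i. H3K27ac over chr9:116173901-116174550 was lower, with 27.13 and 13.59 against 53.73 and 48.54, a call that rescaling removed.

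Smad3 (ENSMUSG00000032402.12, chr9:63646767-63757994, minus strand) is a receptor-activated Smad that binds DNA itself, and it has 5 annotated transcript starts. Its window carried 37.7 listed H3K27ac sites per 100 kb at 24 w.p.i., more than 95.1% of 20807 coding gene windows, whose median was 14.7. For H3K27me3 the density was 5.29, under the median of 6.95. The window also holds Aagab.

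At the 5′ end of Smad3, over the promoter printed above, H3.3 at 3 w.p.i. was higher in Daxx-KO at both listed sites. Counts were 52.91 and 60.43 against 15.43 and 36.67 over chr9:63757501-63758100. Beside it, over chr9:63758201-63758850, they were 48.96 and 39.79 against 15.43 and 0. All 4 comparisons of libraries at each site pointed the same way. At 24 w.p.i. the overlapping H3.3 site chr9:63758401-63759150 was lower instead, with 2.21 and 0 against 181.73 and 48.89, a log2 ratio of -5.79 where the earlier site had 2.38.

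H3K27me3 over the same 5′ end, chr9:63757551-63758850, had 61.42 and 47.84 in Daxx-KO against 196.06 and 201.32 in WT at 24 w.p.i., a log2 ratio of -1.84 and of -1.51 after rescaling. The next site into the gene, chr9:63756451-63757250, had 8.77 and 17.48 against 48.55 and 45.69. Lower counts continued into the first intron, with 11.17 and 28.52 against 61.62 and 52.83 over chr9:63754901-63755700 and 4.79 and 0 against 39.21 and 24.27 over chr9:63745951-63746550. All 8 H3K27me3 sites separated the groups in 1 direction, and 7 of them remained called on rescaling.

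H3K27ac over chr9:63756801-63758850 had 1018.31 and 734.77 normalized counts in Daxx-KO against 699.27 and 508.65 in WT at 24 w.p.i., which did not overlap but differed by a log2 ratio of 0.54, and of 1.11 after rescaling. Upstream of it, chr9:63758951-63759950 was called higher, with 538 and 314.69 against 176.49 and 225.45. The strongest called site lay deep in the gene, at chr9:63690001-63692200, with 2105.56 and 1841.31 against 712.67 and 1055.28. Another strong intron site, chr9:63721101-63722450, had 2126.54 and 1664.2 against 1207.52 and 1109.07, higher in both libraries but not 2-fold.

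On the deposited scale, strong and weak H3K27ac sites of Smad3 did not lean alike at 24 w.p.i. After rescaling 33 sites of the gene were higher and 5 lower, so most of the lower calls counted here were not kept. Of 29 sites whose higher group averaged at least 100 normalized counts 7 were higher and 4 lower, and of 28 weaker ones 8 were higher and 15 lower. Over the whole table the order was reversed, with 30.8% of called strong sites and 40.6% of called weak sites higher. The strongest lower site, chr9:63689451-63690050, had 23.23 and 103.92 against 125.11 and 135.27 and was no longer called on rescaling. Without Daxx-KO replicate 1, 12 sites rather than 19 were lower.

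**Figure D3:**
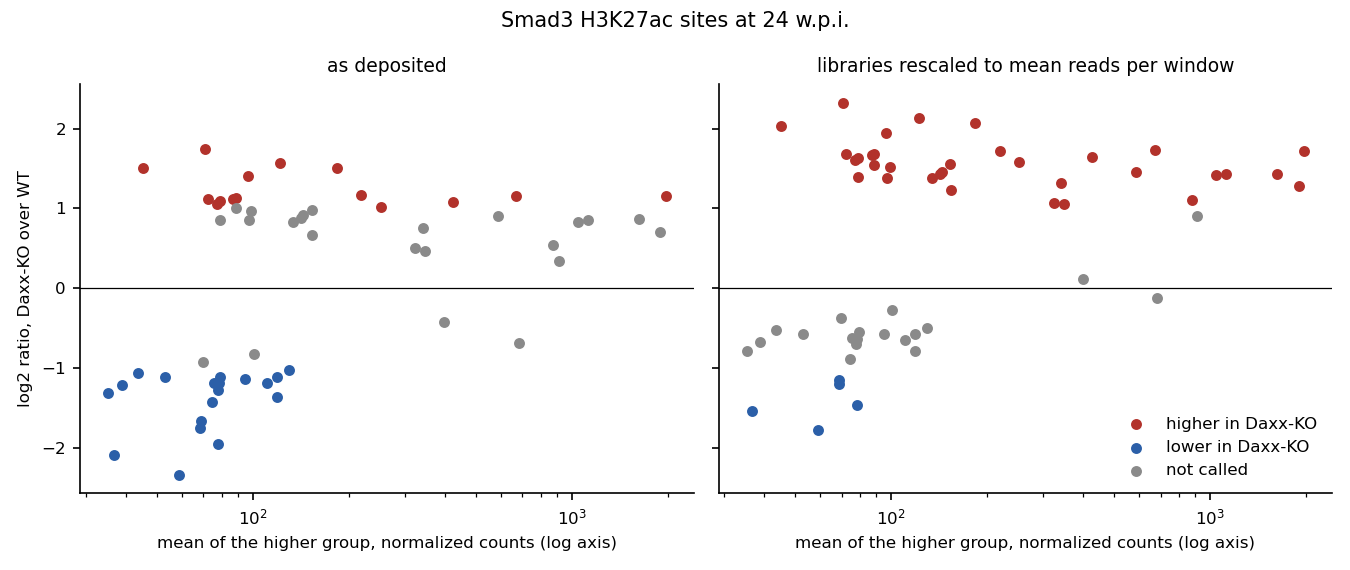
Log2 ratio of Daxx-KO over WT against the mean of the higher group (normalized counts, log axis) for the 57 H3K27ac sites of Smad3 at 24 w.p.i., as deposited (left, 15 higher and 19 lower) and after rescaling the libraries to mean reads per window (right, 33 higher and 5 lower). The direction of the gene as a whole turned between the 2 scalings, while the site with the highest mean, called higher, lay above 0 in both.

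At 3 w.p.i. H3K27ac at Smad3 was lower at nearly every listed site. Its strongest lower site, chr9:63738151-63739400, had 23.26 and 16.99 in Daxx-KO against 58.03 and 57.37 in WT at 3 w.p.i., and the 1 higher site, chr9:63739801-63740500, had 26.16 and 27.18 against 6.45 and 11.03. Near the inner start at 63743265, chr9:63743601-63744350 had 9.69 and 0 against 17.19 and 52.96. There the 24 w.p.i. site chr9:63742751-63743650 was higher, with 72.68 and 84.89 against 24.57 and 48.25. These 3 w.p.i. values are small, and the libraries averaged 1.33 to 2.26 reads per window.

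Around that inner start 5 called sites of 4 tables met at chr9:63743451-63744050. Pu.1 there was higher at 3 w.p.i. (59.86 and 59.99 against 26.12 and 6.39), and H3.3 over chr9:63743101-63744000 was lower at 24 w.p.i. (8.83 and 20.37 against 67.34 and 78.97). Other inner starts had a called Pu.1 site as well. At 63711969 Pu.1 was higher at 3 w.p.i. (61.44 and 73.77 against 37.61 and 28.77), and H3.3 at 24 w.p.i. over chr9:63711251-63712400 had 61.82 and 64.51 against 3.69 and 0. By the most 3′ start, at 63666547, Pu.1 was lower at 24 w.p.i. (15 and 0 against 82.04 and 34.73), next to an H3K27ac site that was higher (210.56 and 158.08 against 48.03 and 79.9 over chr9:63664901-63666450).

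The Pu.1 and H3.3 sites of the Smad3 body were broad and moderate at 3 w.p.i. The strongest higher Pu.1 site, chr9:63716851-63718400, had 154.38 and 182.39 against 94.01 and 70.32, a log2 ratio of 1.03. The strongest lower one, chr9:63720551-63721900, had 52.77 and 43.77 against 112.82 and 210.96. For H3.3 the strongest lay past the 3′ end at chr9:63644401-63645850, with 224.26 and 176.86 against 80.63 and 60.24, and log2 ratios of the 24 listed H3.3 sites ran from 0.85 to 2.38 around a median of 1.56. At 24 w.p.i. the range was far wider, from -5.88 to 4.50, and large ratios were also more frequent over all H3.3 sites. With a 4-fold minimum 19116 of 145427 sites were higher and 24136 lower at 3 w.p.i. At 24 w.p.i. 98542 of 255404 were higher and 98434 lower. Examples at Smad3 at 24 w.p.i. are chr9:63659051-63660300 for H3.3, with 289.25 and 205.99 against 36.9 and 56.41, and chr9:63676901-63677550 for Pu.1, with 132.92 and 169.25 against 0 and 33.68.

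Higher H3K9me3 at Smad3 was spread along the gene at 24 w.p.i. The strongest site overlapped an exon near the 3′ end, chr9:63646901-63648150, with 56.11 and 108.39 against 15.54 and 28.11. The intron region chr9:63701551-63702800 carried 7 called sites of 6 tables, and its 2 H3K9me3 sites differed in direction, higher over chr9:63701451-63702500 (52.28 and 40.65 against 9.33 and 7.5) and lower over chr9:63702201-63703000 (12.75 and 3.13 against 40.42 and 65.59). Neighbouring windows of the same libraries thus separated the genotypes in opposite ways. The intron region chr9:63721251-63722350, which overlaps the strong H3K27ac site there, had lower H3K27me3 (45.47 and 29.44 against 91.49 and 91.38), a call lost on rescaling. At 8 w.p.i., in other mice, the only H3K9me3 site of Smad3, chr9:63708851-63709750, had 10.85, 7.36 and 32.08 in the 3 Daxx-KO libraries and 0 in each WT library.

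**Figure D4:**
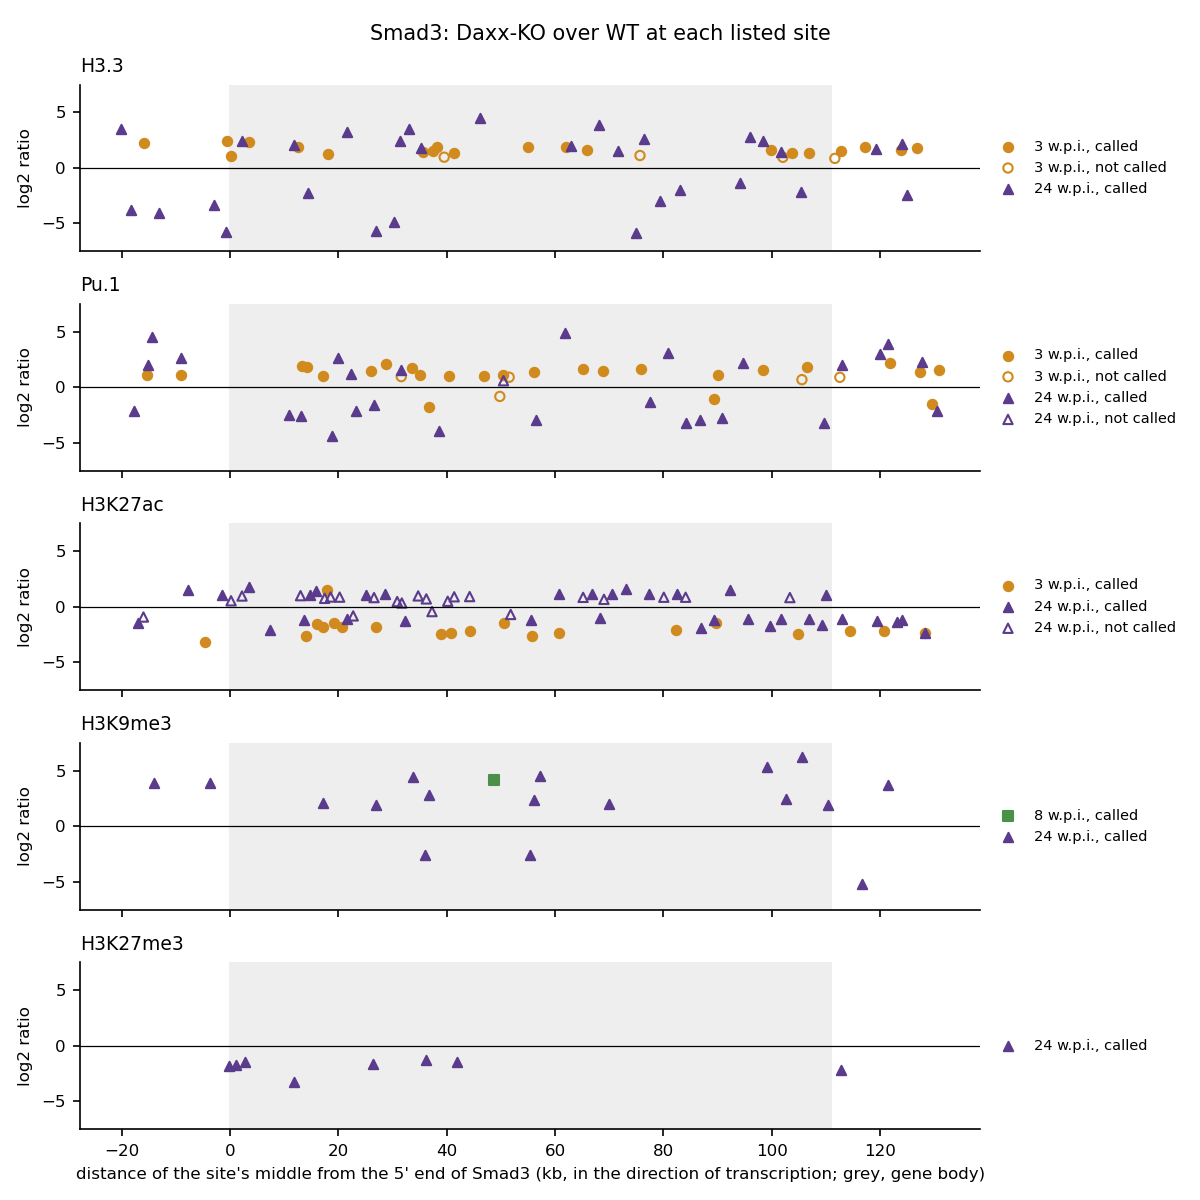
Log2 ratio of Daxx-KO over WT at each listed Smad3 site by the distance of its middle from the 5′ end of the gene (kb, in the direction of transcription, gene body in grey), for each antibody, with filled symbols for called sites. At 3 w.p.i. the called H3.3 sites lay above 0 and 19 of 20 H3K27ac sites below it, and the 8 H3K27me3 sites at 24 w.p.i. lay below 0. The H3K27ac values at 24 w.p.i. are as deposited, and the direction of most called sites was higher after rescaling (33 of 38).

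Smad2 (ENSMUSG00000024563.16, chr18:76241580-76310963, plus strand), the other receptor-activated Smad, differed from Smad3 in several tables. Its H3.3 sites at 3 w.p.i. were 5 lower and 1 higher, and the strongest, chr18:76258151-76259150, had 17.37 and 5.9 in Daxx-KO against 68.01 and 52.39 in WT. Pu.1 over the start, chr18:76241651-76242850, was higher at that time, with 140.21 and 110.24 against 22.98 and 44.75, a log2 ratio of 1.86. It was the one promoter where H3K27me3 was called higher at 24 w.p.i., over chr18:76241901-76242800, with 86.95 and 29.44 against 7.47 and 22.85. The 5′ end itself had less H3K27me3 in Daxx-KO (102 and 119 against 166 and 185 normalized counts per kb), so the direction differed between sites that overlap. At 24 w.p.i. 9 H3.3 sites and 9 Pu.1 sites were higher against 5 and 3 lower, the strongest of them downstream at chr18:76330751-76332250 for H3.3 (194.3 and 364.45 against 49.81 and 41.37). H3K27ac near the start, chr18:76242451-76243050, was lower at 3 w.p.i., with 1.94 and 1.7 against 21.49 and 8.83.

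Smad4 (ENSMUSG00000024515.13, chr18:73639009-73703780, minus strand) is the common Smad that joins the receptor-activated ones. H3.3 at its 5′ end, chr18:73703801-73704450, had 39.48 and 85.48 in Daxx-KO against 15.43 and 18.33 in WT at 3 w.p.i., and the strongest H3.3 site upstream, chr18:73713751-73714950, had 150.82 and 117.91 against 43.47 and 15.72. Pu.1 was lower near 2 inner starts, with 0 and 0 against 50.66 and 57.53 over chr18:73675401-73676000 at 3 w.p.i. and 10.91 and 0 against 83.48 and 33.68 over chr18:73663201-73663850 at 24 w.p.i. Its H3K27me3 differed from that of the other genes at 24 w.p.i., since the strongest called site, downstream at chr18:73619001-73620650, was higher, with 173.1 and 148.11 against 47.61 and 64.25. By the 3′ end of Smad4 neighbouring sites differed in direction at that time. H3K27ac and H3.3 were lower with 18.73 and 0 against 54.74 and 56.96 over chr18:73642651-73643350 and 22.08 and 2.26 against 59.04 and 161.7 over chr18:73640851-73641900, both within 1 kb of an inner start. They were higher closer to the 3′ end, with 76.43 and 84.89 against 51.38 and 20.57 for H3K27ac over chr18:73640251-73641250 and 26.5 and 115.45 against 25.83 and 16.92 for H3.3 over chr18:73640301-73640900, and H3.3 was lower again over chr18:73639701-73640300 (0 and 0 against 49.81 and 37.6).

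Smad6 (ENSMUSG00000036867.7, chr9:63953076-64022059, minus strand), an inhibitory Smad that lies close to Smad3 on chromosome 9, followed Smad3 for H3.3 and H3K9me3. H3.3 beside its 5′ end, chr9:64019801-64021700, had 116.87 and 131.17 in Daxx-KO against 50.48 and 15.72 in WT at 3 w.p.i. H3K27ac over the start, chr9:64021401-64022150, which covers the palindrome printed above, had 74.18 and 65.87 against 31.28 and 18.99 at 24 w.p.i. H3K27me3 was heavy over the 5′ end in both genotypes, with 1376.82 and 1269.53 normalized counts against 1374.26 and 2334.51 over chr9:64021501-64023650, and these libraries overlapped. The 12 sites of Smad6 called lower lay in its introns and downstream, and none within 1 kb of a start. Around an inner start, chr9:64014401-64016200, counts were higher but under 2-fold, with 510.53 and 547.37 against 349.17 and 267.01.

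Pu.1 upstream of Smad6, chr9:64022351-64023950, had 27.26 and 6.27 in Daxx-KO against 113.7 and 147.35 in WT at 24 w.p.i., a log2 ratio of -2.89. H3K9me3 was higher over chr9:63958251-63959800, with 52.28 and 139.66 against 0 and 7.5. Called sites of 7 tables met at chr9:64007501-64008350, more than at any other place in the 8 windows. Lower there were H3K27ac at both times (0 and 0 against 12.89 and 8.83, then 23.98 and 2.93 against 80.43 and 49.84), H3K27me3 at 24 w.p.i. (5.58 and 11.96 against 41.08 and 28.56) and Pu.1 at 3 w.p.i. (14.18 and 29.18 against 53.8 and 92.69). Pu.1 at 24 w.p.i. was higher (89.97 and 31.34 against 24.47 and 15.79), and H3.3 was higher at 3 and lower at 24 w.p.i.

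Smad7 (ENSMUSG00000025880.11, chr18:75367529-75395935, plus strand), the other inhibitory Smad, combined higher H3K27ac with lower H3K27me3 at its start at 24 w.p.i. H3K27ac over chr18:75365951-75369650 had 1788.6 and 1813.5 in Daxx-KO against 987.46 and 728.57 in WT, a log2 ratio of 1.07. H3K27me3 had 49.46 and 53.36 against 147.51 and 124.22 over chr18:75366451-75367750 and 57.43 and 40.48 against 170.85 and 234.17 over chr18:75368751-75370900. Both marks separated the genotypes, in opposite directions, over shared bases, and did so on both scalings. Pu.1 was lower at chr18:75369701-75370750 (1.36 and 28.21 against 94.99 and 97.88) and higher at chr18:75373251-75374300 (62.71 and 35.52 against 20.15 and 14.74).

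At 3 w.p.i. the Smad7 start was not uniform. H3K27ac was lower over chr18:75367701-75368300, with 5.81 and 3.4 against 26.86 and 20.96, and higher over chr18:75369751-75370600, with 85.27 and 130.83 against 42.98 and 50.75. Pu.1, from other Daxx-KO mice, showed the reverse order. It was higher over chr18:75368551-75369300 (48.84 and 45.39 against 7.83 and 25.57) and lower over chr18:75369651-75370450 (15.75 and 38.91 against 66.85 and 95.89, a call lost on rescaling). H3.3 over chr18:75369951-75370650 was higher, with 62.38 and 58.22 against 32.25 and 15.72.

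Over the 5′ ends themselves, all 8 genes had an H3K27ac site at 24 w.p.i., and in each of them the lower Daxx-KO library exceeded the higher WT library. The same held for 71.9% of 6788 sites over coding gene 5′ ends, and on the rescaled values for all 8 genes and 76% of sites. By mean level per kb in Daxx-KO Smad2 led with 1577 normalized counts in Daxx-KO and 923 in WT, followed by Tgfb1 with 869 and 691. Smad4 (610 and 429) and Tgfbr2 (554 and 319) came next, then Smad7 (487 and 232), Smad3 (428 and 295) and Tgfbr1 (301 and 124), with Smad6 last at 93.4 and 33.5. In Daxx-KO, neighbours whose libraries overlapped in this order were Smad4 and Tgfbr2, Tgfbr2 and Smad7, and Smad7 and Smad3. For this mark 9 of 21 member promoter sites were called higher and 3 lower, beside 25% and 36.1% of all promoter sites.

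H3K27me3 at 24 w.p.i. was listed over 6 of the 5′ ends. The Daxx-KO libraries lay under the WT libraries at 5 of them, beside 77.4% of 5883 such sites, and at 3 of 6 beside 53.5% after rescaling. Levels per kb spanned a wide range, from 615 in Daxx-KO and 863 in WT at Smad6 and 222 and 430 at Tgfbr1 to 42 and 153 at Smad3, 39.5 and 105 at Smad7 and 35.3 and 150 at Tgfb1. Tgfbr1 had one WT library, at 259, near its Daxx-KO values of 223 and 221 and the other at 601. Over promoter sites as a whole 7 of 13 were called lower and 1 higher, beside 44.1% and 11.7%.

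**Figure D5:**
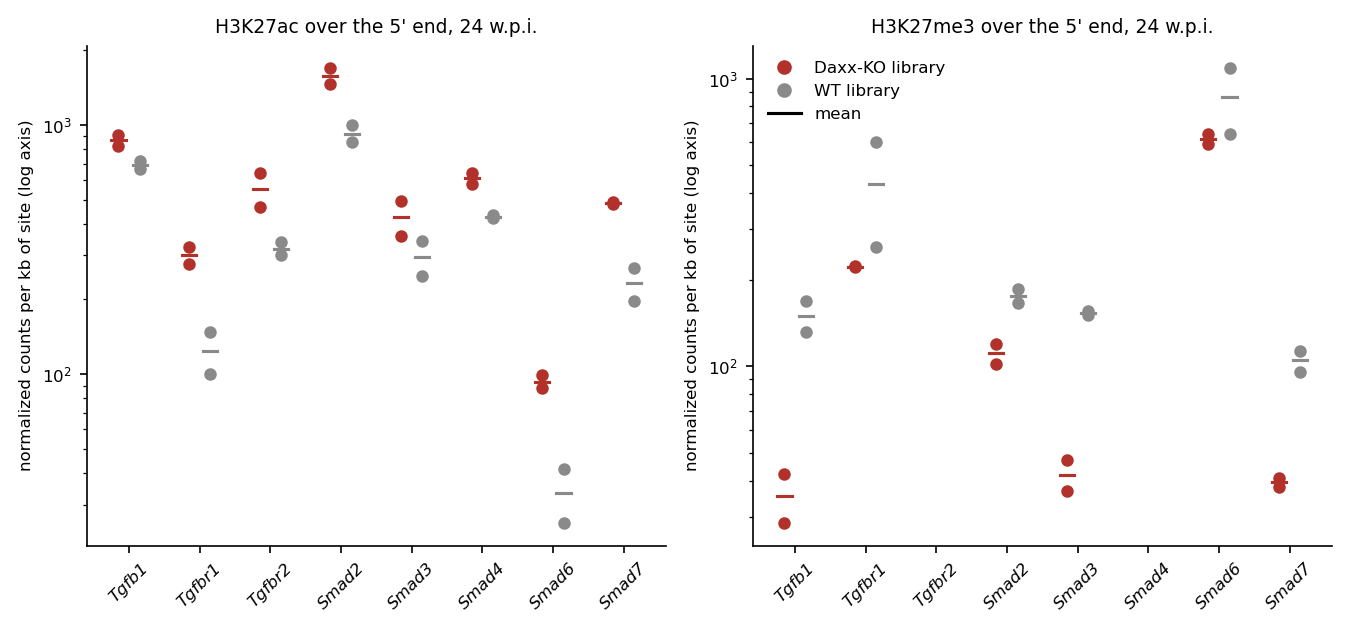
Normalized counts per kb of the site over the 5′ end of each gene at 24 w.p.i. (log axis) for H3K27ac (left) and H3K27me3 (right), 1 point per library and a bar at the mean, Daxx-KO in red and WT in grey. Every Daxx-KO point lies above the WT points of its gene for H3K27ac, on the deposited and on the rescaled values. For H3K27me3 the Daxx-KO points lie below the WT points at 5 of 6 genes and overlap at Smad6 (615 and 863 on average), beside 77.4% of all such sites, and after rescaling at 3 of 6 beside 53.5%. Tgfbr2 and Smad4 had no listed site over the 5′ end.

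The double knockout added few sites. H3K27me3 at 8 w.p.i. had 13 listed member sites for DKO against WT, 4 called higher and 1 lower, beside 45.3% and 37.3% of 61831 sites. These calls were unstable, with 10 rather than 5 without DKO replicate 3 and 2 or 12 with flanks of 0 or 50 kb. For DKO against Daxx-KO it had 11, 5 higher and 3 lower, beside 53.7% and 26.4% of 59565 sites, and both comparisons share the DKO libraries. None of the sites was at Smad3. The clearest lay upstream of Smad7 at chr18:75364201-75365600, where DKO had 91.7, 68.12 and 19.61 normalized counts and WT 5.25, 4.53 and 2.24, a log2 ratio of DKO over WT of 3.60. Against Daxx-KO, scaled separately, DKO had 101.7, 78.4 and 22.33 and Daxx-KO 13.18, 10.87 and 9.21.

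Upstream of Tgfbr1 at chr4:47350651-47352150, DKO was lower than Daxx-KO, with 27.62, 6.03 and 0 against 127.66, 33.69 and 44.75. At Tgfb1, chr7:25680201-25681350 had 18.83, 10.05 and 0 against 35.42, 65.21 and 35.54. At Smad4 DKO was higher than WT within the gene (27.17, 20.96 and 13.08 against 0, 5.43 and 6.71 over chr18:73701651-73702550). H3K9me3 at 8 w.p.i. was listed at few of these loci. Daxx-KO against WT had 2 sites, both higher, beside 55.7% and 30.6% of 69846 sites, DKO against WT had none, and DKO against Daxx-KO had 2, of which 1 was lower and 0 higher, beside 23.8% and 45.2% of 42945 sites. Both H3K9me3 comparisons had a called site past the 3′ end of Tgfbr2, where Daxx-KO had 16.27, 12.87 and 8.02 against 2.37, 2.53 and 0 in WT over chr9:116079301-116079900. DKO had 10.18, 0 and 5.1 against 23.32, 16.97 and 47.67 in Daxx-KO over chr9:116077951-116078950. In this comparison DKO replicates 1 and 2 averaged 0.69 and 0.2 reads per window, and 1 read stood for 2.04 and 3.23 normalized counts. Against WT they averaged 0.67 and 0.21. The part of this low depth in the few H3K9me3 sites of DKO was not tested.

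Of 84 called Pu.1 sites at 3 w.p.i., 15 overlapped a called H3.3 site of the same direction (17.9% of the Pu.1 and 16.9% of the 89 H3.3 sites), and 5 overlapped only opposite ones. Over the whole table the same-direction share was 22.1%, and the opposite-only share was 4.62% beside 5.95% at the 8 genes. For sites less than 1 kb apart the same-direction shares were 40.5% at the 8 genes and 31.4% in the whole table. Smad3 gave 6 of the 15. At 24 w.p.i. the overlap was 16 of 127 Pu.1 sites (12.6%, beside 13.5% of all) and 16 of 123 H3.3 sites, and within 1 kb 29.1% beside 25.4%. At Smad3 at that time 11 of 34 called H3K27ac sites overlapped only H3.3 sites of the opposite direction and 2 overlapped one of the same direction, on the deposited scale, beside 13% and 14.4% of all called H3K27ac sites. By their labels H3.3 and Pu.1 libraries of one time came from the same mice, and so did all antibodies at 24 w.p.i. For WT replicate 1 at 3 w.p.i. the labels of H3.3 and Pu.1 gave no mouse number, so a shared mouse is not shown there.

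The times came from different mice and were scaled separately. Of the sites called at 3 w.p.i., 12 of 89 for H3.3, 12 of 84 for Pu.1 and 20 of 82 for H3K27ac overlapped a site called in the same direction at 24 w.p.i., and 9, 12 and 9 overlapped only opposite ones. These are 13.5%, 14.3% and 24.4% in the same direction, beside 14.9%, 14.9% and 17.4% of all called sites. The opposite-only shares were 10.1%, 14.3% and 11%, near the 12.8%, 14.5% and 9.37% of all called sites. Within 1 kb they were 31.5%, 23.8% and 42.7%, beside 27.4%, 27.2% and 28.5%. None of the 4 H3K9me3 sites recurred, and 8% of all did. Smad3 had 3 recurring H3.3 sites, 4 of Pu.1 and 4 of H3K27ac.

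Other genes of the pathway, 58 in all, were counted in the same kind of window. For H3.3 at 3 w.p.i. they had 367 higher and 184 lower sites, 66.6% higher beside 59% of all called sites, with 38 genes having more higher than lower sites and 13 the reverse. All 10 target genes had more higher than lower sites (51 and 11, 82.3% higher), among them Tgfbi, a secreted protein induced by TGF-beta. Pu.1 at 3 w.p.i. gave 309 and 247 (55.6%, all sites 55.3%), H3K27ac 186 and 288 (39.2%, all sites 39.7%) and H3K9me3 at 24 w.p.i. 184 and 130 (58.6%, all sites 49.1%). Rescaling gave 77.8% for H3.3 (all sites 69.6%) and 70.9% for Pu.1 (69.1%) at 3 w.p.i.

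H3K27me3 at 24 w.p.i. had 95 higher and 246 lower sites over these 58 genes, 27.9% higher beside 36.4% of all called sites, and 41 genes had more lower than higher sites and 10 the reverse. After rescaling the sites were 144 higher and 160 lower, 47.4% beside 56.4%. The co-repressors and inhibitors had 3 higher and 47 lower (9 and 27 rescaled), and the target genes 10 and 45 (18 and 24). Adaptors and partners were even, with 23 and 23 (30 and 17). The other antibodies at 24 w.p.i. stood near the whole tables, H3.3 with 454 and 421 (51.9% higher, all sites 52%), Pu.1 with 383 and 500 (43.4%, all sites 47.7%) and H3K27ac with 280 and 463 (37.7%, all sites 39%). The direction for H3K27ac turned on rescaling, to 406 and 283 (58.9%, all sites 57.6%). Windows of these genes differ in length, and counts follow it in part. Nedd4l, a ubiquitin ligase that acts on Smads, had 367 called sites in Daxx-KO against WT, or 99.2 per 100 kb, and Mecom, a stem cell transcription factor, 295 or 46.3. Ltbp1, which stores latent ligand, had 240 or 56.2, and Tgfbr3, a co-receptor, 205 or 91.9.

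The Daxx-KO and cell labels were set beside values at Daxx and at marker genes, and the DKO label was not. At Daxx, over chr17:33909801-33913400, H3K27ac at 24 w.p.i. had 113.15 and 93.68 in Daxx-KO against 857.89 and 367.84 in WT. The bounds of the floxed part were not given. Overlapping sites of H3K27ac at 3 w.p.i. and of Pu.1 and H3K27me3 at 24 w.p.i. were lower too. At 3 w.p.i. sites of H3.3 and Pu.1 that overlapped that region at 1 end only, and lay mostly outside it, were higher. Counts were 82.91 and 122.33 against 40.67 and 20.95 over chr17:33909151-33910200 for H3.3. For Pu.1 they were 59.86 and 102.95 against 32.38 and 28.77 over chr17:33909201-33909900. H3K27ac at 24 w.p.i. was higher on both sides of the region (1569.81 and 1036.29 against 775.23 and 580.64, and 1874.77 and 1617.37 against 711.56 and 914.47). All 7 progenitor markers (Kit, Cd34, Gata2, Meis1, Mecom, Myb and Flt3) had an H3K27ac promoter site listed at 24 w.p.i. Of 22 sites 11 were higher and 4 lower, on the deposited scale. Gata2 gave 6 of the higher sites, while Kit had 1 higher and 4 lower. Over all promoter sites 25% were higher and 36.1% lower. Of 19 markers of other blood and stromal cells 15 had such a site too, with 7 of 32 higher and 14 lower. Their group means reached 4601 at S100a8, a neutrophil gene. Their part in the results was not tested. Mean reads per window ran from 1.21 to 33.78 at 3 w.p.i., 0.2 to 3.29 at 8 w.p.i. and 3.97 to 10.3 at 24 w.p.i.

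The sites nearest the 20 kb limit differed from each other in antibody or time, so their counts do not compare the sides of the limit. Just inside it, Pu.1 at 24 w.p.i. near Smad7 had 0 and 0 against 31.66 and 66.31, at 19979 bp from the gene, and H3K27ac near Smad4 had 32.97 and 23.42 against 13.4 and 4.75, at 19971 bp. Just outside, H3K27ac at 3 w.p.i. near Smad3 had 9.69 and 71.36 against 3.22 and 0, at 20007 bp, and H3K27me3 at 24 w.p.i. near Tgfbr1 had 22.34 and 14.72 against 56.02 and 35.7, at 20170 bp.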

How the data were processed

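Per the labels, libraries were made by CUT&Tag from frozen nuclei of the enriched cells. The submitters' processing notes name CASAVA 1.8.4, cutadapt 1.13, STAR 2.5.3, bedtools and mm10, with no role given. Per the file headers the authors compared groups with diffReps 1.55.6 (windows of 600 bp in steps of 50 bp, fragments of 100 bp, negative binomial test, window p cutoff 0.0001). The deposited signal is each library's read count per site divided by a constant from the header, and 24 w.p.i. tables leave out X and Y. The authors' own fold changes, p-values and direction columns were not used, nor was 1 table of H3K27me3 whose controls were H3K9me3 libraries. Another 8 libraries were in no table.

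From the deposited signal, group means, log2 ratios with 1 added, and calls (complete separation and 2-fold) were computed in Python 3.11.15 with pandas 2.3.3, and counted in windows of GENCODE M21 genes with 20 kb flanks. Sites named are those within 1 kb of a transcript start, the strongest called per table (in each direction for Smad3), regions where called sites of 3 or more tables overlap, and the sites nearest the 20 kb border. A few strong uncalled H3K27ac sites, Smad3 intron H3K27me3 sites the further Smad4 3′ end and Tgfbr1 upstream sites and sites over 5′ ends were chosen after their values were seen. The members and gene lists were chosen with earlier results of these data known. Counting was tested on simulated data. Promoters are from RefSeq GRCm38.p6. Alternatives were other folds, flanks, pseudocounts and overlaps, leaving out each library, and, chosen after seeing the data, scaling each library to its mean reads per window. The reads of a library at a site follow from its normalized count times its constant, and some values rest on few reads. The 5.24 of WT replicate 2 for H3.3 at 3 w.p.i. upstream of Tgfbr1 stood for 2 reads. The number of libraries also limits the precision.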

Additional observations from a re-analysis of the deposited data

Results flagged for a closer look

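At 4 places near transcript starts the 3 and 24 w.p.i. tables gave overlapping sites whose libraries separated in opposite directions. None of these differences was tested, the times were scaled separately, and 32 of 77 overlapping pairs of called sites at the 8 genes were opposite. Sites called at 3 w.p.i. that overlapped only opposite ones were 10.1% for H3.3 and 11% for H3K27ac at the 8 genes. Among all called sites they were 12.8% and 9.37%. At the 5′ end of Smad3 the log2 ratio for H3.3 at 24 minus that at 3 w.p.i. was -8.17 (chr9:63758201-63758850 and chr9:63758401-63759150). For H3K27ac it was 3.72 (chr9:63743601-63744350 and chr9:63742751-63743650) and 2.96 (chr9:63741651-63742350 and chr9:63741701-63742450) near an inner start of Smad3, and 3.22 at the start of Smad7 (chr18:75367701-75368300 and chr18:75365951-75369650).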

How the results depend on the processing

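For H3K27ac at 24 w.p.i. the share of called sites that were higher moved from 45.8% to 79.1% under rescaling. At a 4-fold minimum the shares at 3 w.p.i. became 52.6% for H3.3 (all sites 44.2%) and 58.3% for Pu.1 (all sites 44.7%). For H3K27me3 at 24 w.p.i. the share became 0%, with 0 higher and 14 lower, and that of all sites 17.2%. For H3K27me3 in DKO against WT it became 100%, with 4 higher and 0 lower, beside 54.5% of all sites. At this minimum 364 sites of Daxx-KO against WT stayed called out of 763. Rescaling gave 87.1% for Pu.1 at 3 w.p.i. With 0 kb flanks 468 sites were called, with 50 kb 1198, and for DKO against WT 2 and 12 of the main 5, for DKO against Daxx-KO 2 and 14 of the main 9, and both H3K27me3 shares became 100%. A 2-fold ratio alone gave 11 for DKO against WT and a mean of at least 20 gave 2, a share of 100%. Same-direction overlap of Pu.1 with H3.3 became 40.5% within 1 kb and 0% at 4-fold at 3 w.p.i., and 29.1% within 1 kb at 24 w.p.i. Recurrence between the times within 1 kb became 31.5% for H3.3, 23.8% for Pu.1 and 42.7% for H3K27ac, and 6.74% for H3.3 where 50% of the shorter site had to be shared. Leaving out 1 library gave 736 to 769 called sites for Daxx-KO against WT, 9 to 10 for DKO against Daxx-KO and 5 to 10 for DKO against WT, the 10 without DKO H3K27me3 replicate 3. Shares without 1 library ran from 78.5% to 83.5% for H3.3 and 68.4% to 74.4% for Pu.1 at 3 w.p.i., and from 9.8% to 14.8% for H3K27me3 at 24 w.p.i. Such shares were not computed for all sites. The other 133 and 125 values moved less. The causes were not tested. No paired analysis was possible because the results come from no test.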
